A study of Arabidopsis thaliana with 13 samples.

Results

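AT2G30810 is a protein-coding gene on chromosome 2 of Arabidopsis thaliana with 1 annotated RefSeq transcript, and its product belongs to the GASA family. The gene is read by 1 of the 13513 probe sets that were annotated to a single gene on the Affymetrix ATH1 arrays of the study. It was selected on its measured signal in these same arrays, chosen because that signal followed the balance of maternal and paternal genomes, so its levels are given as a description and were not tested.

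GASA proteins are small, secreted and rich in cysteines, and the first members were found as transcripts that respond to gibberellin, a hormone of elongation growth, germination and fruit growth. Members of the family are known from roots, flowers and seeds, where they act in growth and in redox and hormone signalling. The endosperm, a product of fertilisation that feeds the embryo, receives genomes from the central cell of the mother and from 1 sperm. It grows more when paternal genomes are in excess and less when maternal genomes are in excess. The Polycomb proteins of the FIS class, which include FIS1 (MEDEA) and MSI1, hold back endosperm proliferation in normal seeds.

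RNA had been taken from whole siliques, each sample pooled from several plants, and hybridised to 13 arrays. In the name of a cross the ploidy of the mother comes before that of the father. The siliques of 6 groups, with 2 biological replicates each, were harvested 5 days after pollination (DAP). They comprised 6xX2x and 4xX2x, with maternal excess, 2xX2x, with a balanced genome ratio, 2xX4x and 2xX6x, with paternal excess, and fis1X2x, in which a homozygous fis1-3 (mea-3/f644) mother was pollinated by a wild-type diploid father. The seventh group was 1 array of unfertilised siliques of msi1-2, harvested 7 days after flowering, which has no replicate. Per the labels, mother and father were C24 in 2xX2x, 2xX4x and 4xX2x. The hexaploid parent, mother of 6xX2x and father of 2xX6x, was Col-1, the fis1-3 mother was Ler with a C24 father, and msi1-2 was labelled C24. The diploid and tetraploid C24 mothers of 2xX2x, 2xX4x, 2xX6x and 4xX2x carried the A9-barnase transgene, which makes plants male sterile through a tapetum promoter. The hexaploid mother carried no transgene, and the fathers carried no modification. Accession and ploidy therefore cannot be told apart in 6xX2x and 2xX6x, and accession and the mutation cannot be told apart in fis1X2x. In the paper's methods the msi1 plants were the F1 of msi1 mutants and male-sterile C24 plants, so that wild-type ovules could be present among them. MEA and MSI1 were not named by a probe set of their own here, and the mutant labels were not checked against them.

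The only sequences of AT2G30810 in the sources used here are the study's pair of qRT-PCR primers, which are shown because they identify the transcript that the study followed up. Both are written 5′ to 3′ with no part in capitals, and their position in the genome was not determined here.
Forward primer: ttgtctttgttatatccagtttg
Reverse primer: atgcctttggacattcttc
The forward primer has 23 bases and the reverse primer 19, with 30.4% and 42.1% G and C. No protein or promoter sequence was used here.

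All 13 arrays had been scaled to the same trimmed mean, and their median signals were 38 to 46.4. The ratio of 3 prime to 5 prime signal of the actin probe sets, a measure of RNA integrity, was 17.3 on 6xX2x replicate 1 and 0.561 to 4.44 on the other 12 arrays. Differences of each probe set from its 2xX2x mean were also compared between chromosomes (log2). On 4xX2x replicate 2 the median difference of the 1289 probe sets of genes on chromosome 2 was -0.20 relative to the other chromosomes. On the other arrays it was -0.05 to 0.05, and the 2xX2x arrays are near 0 as the reference. AT2G30810 lies on this chromosome, and any part of this shift in its 4xX2x level was not tested. All values of the gene below are MAS5 signals, in the linear unit of the array software, or differences on the scale of log2(signal + 7.4), which understates changes of dim genes.

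AT2G30810 was in the dimmer part of the array or near its median in maternal excess and unfertilised msi1, intermediate in the balanced cross, and high in paternal excess and fis1X2x. In 6xX2x its signal was 20 and 45.0. In 4xX2x it was 13.2 and 18.5. In 2xX2x it was 166 and 278. The 4 maternal excess arrays thus all lay below both balanced arrays.

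In 2xX4x the signal was 1582 and 1212, and in 2xX6x it was 3828 and 4131. In fis1X2x it was 3632 and 4209, and on the msi1 array it was 21.8. The 6 arrays of 2xX4x, 2xX6x and fis1X2x all lay above both 2xX2x arrays, and the msi1 array lay inside the range of maternal excess.

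**Figure D1:**
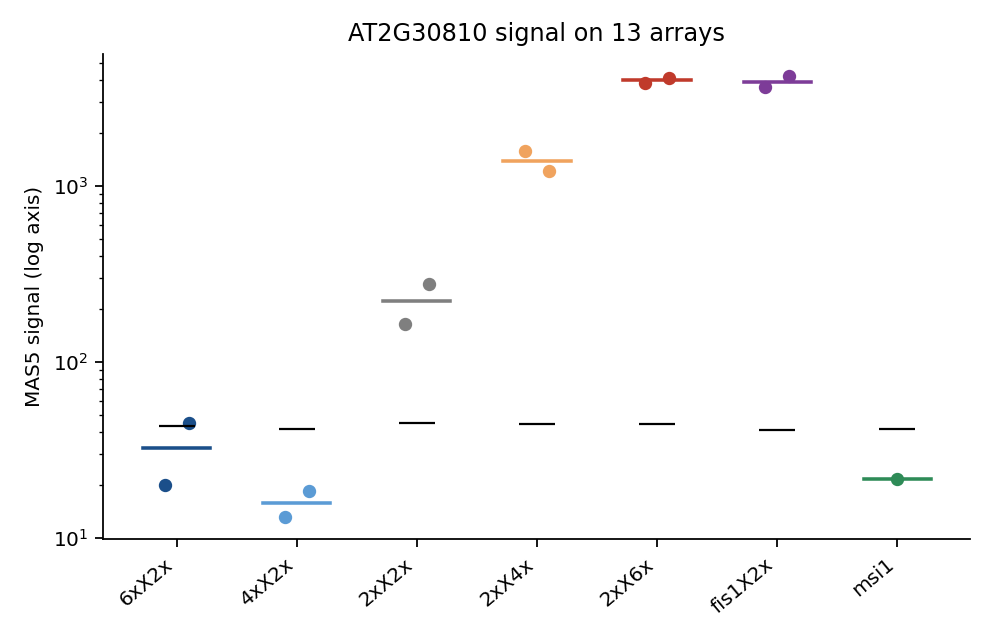
MAS5 signal of AT2G30810 (log axis) on each of the 13 arrays, by group in order of maternal to paternal ploidy ratio and then fis1X2x and msi1. Points are arrays, coloured lines are group means, and black dashes are the mean of the array medians of each group. The signal rises from 13.2 to 45.0 in maternal excess to 1212 to 4131 in paternal excess, and fis1X2x overlaps 2xX6x.

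The group means were 32.5 ± 17.7 in 6xX2x, 15.9 ± 3.75 in 4xX2x, 222 ± 79.8 in 2xX2x, 1397 ± 262 in 2xX4x, 3979 ± 215 in 2xX6x and 3921 ± 408 in fis1X2x (SD, n = 2 each). The rank of a signal among all 22746 probe sets of an array also depends on how well each probe set hybridises, and is no order of transcript amounts. On this scale AT2G30810 ranked 23rd and 44th from the brightest in 2xX6x, 74th and 68th in fis1X2x and 238th and 385th in 2xX4x. It ranked 4224th and 2373rd in 2xX2x. In maternal excess it was brighter than only 30.8% to 51.3% of probe sets, and in msi1 than 37.2%. In 2xX4x, 2xX6x and fis1X2x it was brighter than 98.3% to 99.9% of probe sets.

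The order of the groups from the lowest was 4xX2x, msi1, 6xX2x, 2xX2x, 2xX4x, fis1X2x and 2xX6x. The pooled SD between replicates of this gene was 0.38 on the log2 scale. At the low end, msi1 was not separated from its neighbours beyond that spread: it differed from 4xX2x by 0.34 and lay between both arrays of 6xX2x. The groups at the high end were not separated on the arrays either, since fis1X2x and 2xX6x differed by 0.02 and their arrays overlapped. The paper's qRT-PCR of this gene, by contrast, gave a higher value in 2xX6x than in fis1X2x. The 3 steps between were each larger than the replicate spread. From 6xX2x to 2xX2x the lowest balanced array was 3.68 times the highest array of 6xX2x, from 2xX2x to 2xX4x the corresponding ratio was 4.35, and from 2xX4x to fis1X2x it was 2.30.

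The endosperm of 6xX2x, 4xX2x, 2xX2x, 2xX4x and 2xX6x has 6, 4, 2, 2 and 2 maternal genomes and 1, 1, 1, 2 and 3 paternal genomes, so the paternal share is 14.3%, 20%, 33.3%, 50% and 60%. Along this series the signal did not follow the share in proportion. From 4xX2x to 2xX2x the ratio of paternal to maternal genomes changes by a factor of 2, and AT2G30810 was 9.63-fold higher with the offset, on which scale the other steps are also given. From 2xX2x to 2xX4x the ratio again changes by a factor of 2, and the gene was 6.26-fold higher. From 2xX4x to 2xX6x the ratio changes by a factor of 1.5, and the gene was 2.86-fold higher. From 6xX2x to 4xX2x it also changes by a factor of 1.5, but the level in 4xX2x was 0.610 of that in 6xX2x (-0.71 on the log2 scale). The arrays of the groups did not overlap (13.2 and 18.5 against 20 and 45.0) but nearly met. Replicates differed 1.40-fold in 4xX2x and 2.25-fold in 6xX2x. The array at 20 was the one with the high actin ratio, and 6xX2x has a Col-1 mother.

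Between the reciprocal crosses within C24, the mean signal of 2xX4x was 88.2 times that of 4xX2x, or 60.3-fold higher with the offset. The part of accession in the levels of the other crosses was not tested. The siliques of the 2 crosses also differ in the ploidy of the fruit wall. Relative to 2xX2x, the differences were 2.65 in 2xX4x, 4.16 in 2xX6x and 4.14 in fis1X2x, and the gene fell by 3.27 in 4xX2x and fell by 2.55 in 6xX2x (log2, SE 0.34 in each). Among the 15982 probe sets that passed the filter on dim signals, on this scale, whose offset shrinks the changes of dim probe sets more, these ranked 10th, 13th and 16th from the highest and 32nd and 56th from the lowest. In the contrast of the 4 paternal with the 4 maternal excess arrays, where AT2G30810 was 6.31 ± 0.24 higher (log2 ± SE), it ranked 1st. Leaving out 6xX2x replicate 1, the array with the high actin ratio, the gene fell by 2.09 in 6xX2x, and leaving out 6xX2x replicate 2 it fell by 3.02. Without 4xX2x replicate 2, the array with the low chromosome 2 median, the gene fell by 3.43 in 4xX2x.

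On the msi1 array AT2G30810 was more than 1 (log2) below both 2xX2x arrays, as were 6.04% of probe sets, and its mean signal in 2xX2x was 10.2 times that in msi1, or 7.62-fold with the offset. The order with no overlap, in which every maternal excess array lies below both 2xX2x arrays and every paternal excess array above them, was met by 135 of the 15982 probe sets (0.845%), 76 of them single-gene, and the reverse order by 31 (0.194%). AT2G30810 ranked 5th of the 135 by the step from balanced to paternal excess and 9th by the step from maternal excess to balanced. Its whole range over the 13 arrays was 7.68 on the log2 scale, which ranked 10th, against a median of 1.39 over all probe sets kept and 3.06 over the 135. Only 10 of the 135 had a step of at least 2 (log2) on both sides, and 6 of these name a gene: AT2G30810, the defensin-like gene AT5G54220, the serine carboxypeptidase-like gene scpl47, AT4G09090, AT4G35725 and AT2G02515. These are descriptions, because the order is what the gene was chosen for.

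The siliques hold fruit wall, seed coat, embryo and endosperm, so that a lower signal from fewer cells of a type and from less RNA per cell cannot be told apart. Marker lists of these tissues were mostly not named by probe sets of their own: 3 of 9 endosperm markers, 0 of 7 embryo markers, 1 of 7 seed coat markers and 1 of 7 fruit wall markers were. Of the 3 endosperm markers, MPC, an imprinted gene, and AGL62, a MADS-box repressor of cellularisation, passed the filter and IKU2, a receptor kinase of seed size, did not.

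The summed signal of the 3 endosperm markers was 36.7 to 48.4 in 6xX2x, 21.9 to 58.5 in 4xX2x, 13.6 to 35.4 in 2xX2x, 43.1 to 46.9 in 2xX4x, 204 to 235 in 2xX6x, 206 to 329 in fis1X2x and 62 in msi1. It was therefore high in 2xX6x and fis1X2x, where AT2G30810 was highest. The sums of 6xX2x and msi1, where AT2G30810 was low, lay above those of both 2xX2x arrays, and those of 4xX2x overlapped them. The marker sum of 2xX4x lay within the range of maternal excess, while the AT2G30810 signal did not. Most of the high sums was MPC alone, at 154 and 162 in 2xX6x and 158 and 269 in fis1X2x. IKU2 was 18.7 and 16.2 in 2xX6x, 7.2 and 2.9 in fis1X2x, and 12 and 3.9 in 2xX2x. Its fis1X2x arrays thus overlapped those of 2xX2x. Whether the marker sum follows the amount of endosperm was not tested. MPC rose in 2xX6x (log2 3.32 ± 0.44, adjusted p = 0.00311, limma) and in fis1X2x (3.69 ± 0.44, adjusted p = 0.0011), where 0.951% and 2.18% of all probe sets were called in either direction. In paternal against maternal excess, where 5.58% of all probe sets were called, MPC rose by 1.50 ± 0.31 (adjusted p = 0.0162, limma), a call lost without 4xX2x replicate 1, either 2xX4x array or 2xX6x replicate 1 (adjusted p up to 0.0731). In 2xX6x AGL62 differed by 1.85 ± 0.43 (adjusted p = 0.0945, limma), and in fis1X2x it rose by 2.01 ± 0.43 (adjusted p = 0.0356, limma), a call that was lost on leaving out any array other than those of 4xX2x (adjusted p up to 0.199). The seed coat marker BAN, an anthocyanidin reductase gene, lay between 640 and 1839 and the fruit wall marker ALC between 182 and 571. In paternal against maternal excess BAN differed by -0.51 ± 0.30 (adjusted p = 0.369, limma) and ALC by -0.67 ± 0.26 (adjusted p = 0.177, limma). The part of tissue shares in the AT2G30810 values was not tested.

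The other GASA family genes were asked whether they followed the same order. Of 14 listed, 5 were named by a probe set of their own and 4 passed the filter. In limma 0 of the 4 were called in any of the 7 contrasts, which were each of the 5 crosses against 2xX2x, paternal against maternal excess, and the difference between the lethal pair (2xX6x and 6xX2x) and the viable pair (2xX4x and 4xX2x). The corresponding share of all 15982 probe sets was 0.0813% in 2xX4x, 0.951% in 2xX6x, 2.18% in 4xX2x, 2.31% in 6xX2x, 2.18% in fis1X2x, 5.58% in paternal against maternal excess and 0.369% in the difference between the pairs. At an unadjusted p under 0.05, 0, 1, 1, 1, 4, 1 and 1 of the 4 would pass in that order, where 2.82%, 5.12%, 12.1%, 16%, 12%, 20.3% and 8.53% of all probe sets would. The median of the 4 in paternal against maternal excess was 0.01, beside 0.01 over all probe sets. In fis1X2x, where AT2G30810 was also high, their median was 1.24, beside -0.06 over all probe sets. The 4 differences lay between -1.04 and 1.78, with AT5G59845 as the lowest. Among the 4, AT1G22690 and AT2G18420 were dim in 2xX2x, at 3.6 to 26.9 and 1.2 to 7.6. The fis1X2x mother was Ler, so accession and mutation cannot be told apart here.

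Another order of groups than in AT2G30810 was seen in AT5G59845, with no contrast called. Its signal was 701 and 662 in 6xX2x, 2497 and 3759 in 4xX2x, and 1776 and 2066 in 2xX2x. It was 1736 and 2153 in 2xX4x, 1095 and 1018 in 2xX6x, 621 and 1385 in fis1X2x, and 608 in msi1. The arrays of 6xX2x and 2xX6x, the crosses with the larger imbalance in either direction, lay below those of 2xX2x, and those of 4xX2x lay above. 6xX2x and 2xX6x are also the only crosses with a Col-1 parent, so imbalance and accession cannot be told apart here. In 6xX2x against 2xX2x it differed by -1.48 ± 0.36 (adjusted p = 0.0601, limma), and in 2xX6x by -0.85 ± 0.36 (adjusted p = 0.829, limma). In paternal against maternal excess it differed by -0.02 ± 0.25 (adjusted p = 0.98, limma).

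AT2G14900 was measured clearly on all arrays, with signals from 400 in 4xX2x to 1124 in fis1X2x. Both fis1X2x arrays, at 1067 and 1124, were the highest of the 13, and the difference from 2xX2x was 1.01 ± 0.27 (adjusted p = 0.102, limma). AT1G22690 was dim and variable, from 3.6 to 140, and differed by -1.30 ± 0.56 in paternal against maternal excess (adjusted p = 0.218, limma). AT2G18420 lay between 1.2 and 33.8, and AT2G39540, which did not pass the filter, between 1.6 and 29.2.

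**Figure D2:**
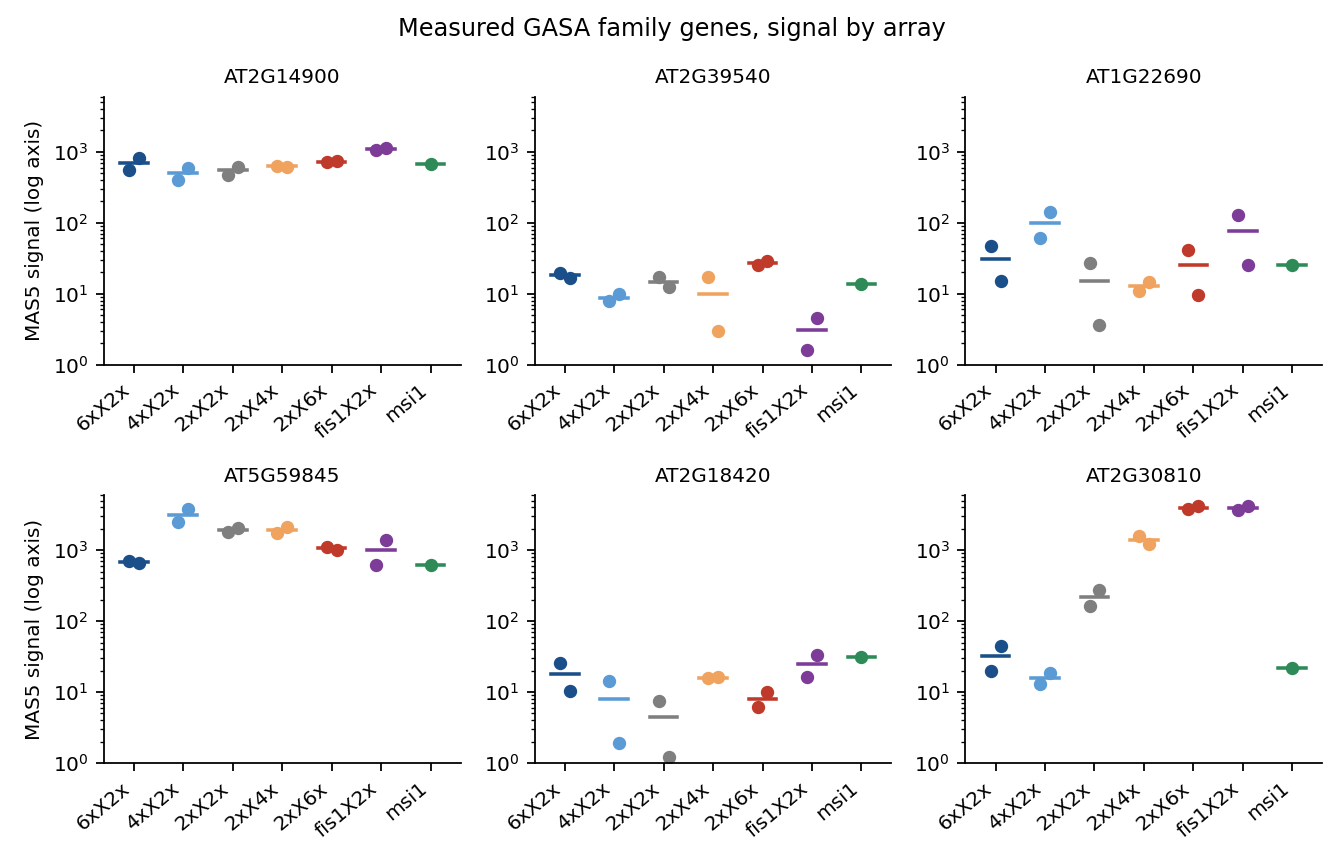
MAS5 signal (log axis) of the 6 GASA family genes that were named by a probe set of their own, on 13 arrays by group. Points are arrays and lines group means. AT2G30810 rises across the series, whereas AT5G59845 is lower in 6xX2x (662 and 701) and 2xX6x (1018 and 1095) than in 2xX2x (1776 and 2066).

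Gibberellin genes were examined as the pathway that the family is named for. Of 37 listed genes, 6 were named by a probe set of their own in the annotation used here and 5 passed the filter. None of the 14 biosynthesis genes or the 9 inactivation genes was among them. The measured genes were the receptors GID1A, GID1B and GID1C, the F-box gene SLY1 and its relative SNE, which mark the DELLA repressors for removal, and SPY, an O-fucosyltransferase that represses the pathway. In limma 0 of the 5 were called in any of the 7 contrasts, and at an unadjusted p under 0.05 1, 0, 1, 1, 0, 0 and 0 would pass in the order of contrasts above, beside the shares of all probe sets given there. The lowest adjusted p was 0.229, for GID1B in 6xX2x, which differed from 2xX2x by 1.18 ± 0.45. The median of the 5 in paternal against maternal excess was -0.13, against 0.01 over all probe sets, and their differences lay between -0.39 and 0.12. The summed signal of the 3 receptors lay between 86 and 211 on all arrays. GID1A, at 62.4 to 184, was above the array median on every array, whereas GID1B, at 1.7 to 31.2, was below it.

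Genes whose profile was most like that of AT2G30810 were ranked by Pearson's r of log2(signal + 7.4) over the 13 arrays, among single-gene probe sets that passed the filter. The arrays share parents and replicates, and the values are a description with no test. Of 8778 genes, 41 (0.467%) had r above 0.9 and 9 above 0.95, and 1 had r below -0.9.

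AT5G58830, a subtilisin-like protease gene, was the most alike (r = 0.99, Spearman's rho = 0.99). Its signal was 4.2 and 5.8 in 6xX2x, 1.2 and 1.5 in 4xX2x, and 19.4 and 25.1 in 2xX2x. It was 48.3 and 54.6 in 2xX4x, 110 and 112 in 2xX6x, 86.7 and 196 in fis1X2x, and 1.8 in msi1. The order of the groups was that of AT2G30810 up to 2xX4x. With the offset, which shrinks the changes of so dim a gene, its range was smaller. On that scale it was 1.99-fold higher in 2xX4x than in 2xX2x, where AT2G30810 was 6.26-fold higher.

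AT5G54220, a defensin-like gene (r = 0.98), was 0.8 to 12.2 in maternal excess, 54.9 and 62.4 in 2xX2x, 265 and 123 in 2xX4x, 1285 and 899 in 2xX6x, 1156 and 2107 in fis1X2x, and 3.2 in msi1. EXPA21, an expansin gene whose kind of product loosens cell walls (r = 0.97), was 1.7 to 3.4 in maternal excess, 29.8 and 27.7 in 2xX2x, 193 and 108 in 2xX4x, 1218 and 1203 in 2xX6x, 335 and 840 in fis1X2x, and 6 in msi1. In both the step from 2xX4x to 2xX6x was larger than in AT2G30810, at 5.74-fold and 8.03-fold with the offset. The other 7 were AT4G09090 (r = 0.98), with a carbohydrate-binding X8 domain, the dirigent-like gene AT4G38700 (0.97), the ribosomal protein S19 family gene AT5G09500 (0.96), LCR24, of small secreted cysteine-rich proteins (0.96), scpl47 (0.95), the glycosyl hydrolase family gene AT2G39640 (0.95) and the invertase or pectin methylesterase inhibitor gene AT1G48010 (0.95).

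**Figure D3:**
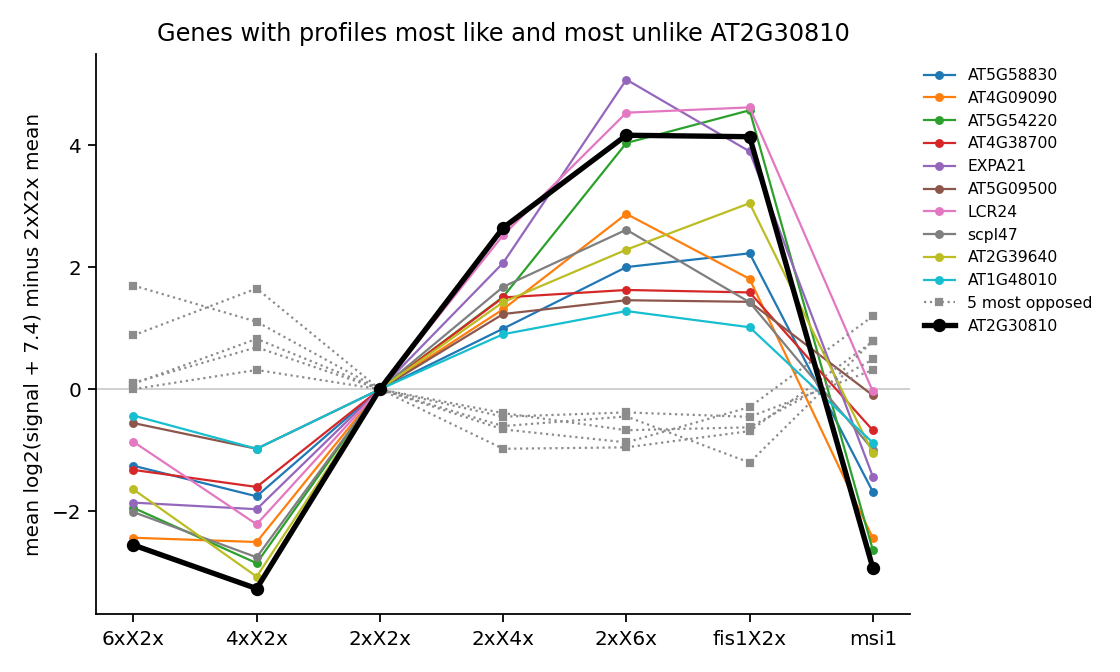
Mean log2(signal + 7.4) of each group minus the mean of 2xX2x, for AT2G30810 (black, thick), the 10 genes with the highest r (coloured) and the 5 with the lowest (grey, dotted), over 7 groups. The 10 lie below 0 in maternal excess and above 0 in paternal excess and fis1X2x. The offset shrinks the falls of genes with signals near 0.

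Of the 10, 8 also met the order with no overlap between maternal excess, balanced and paternal excess arrays, beside 0.845% of all probe sets kept. The exceptions were LCR24 and AT1G48010. The 10 were ranked by likeness to AT2G30810 on these same arrays, so this count is a description and no separate evidence. The 10 genes differed among themselves in the steps, given here with the offset, which shrinks the steps of the dimmer genes. From 2xX2x to 2xX4x they were 1.87-fold to 5.75-fold higher, and from 2xX4x to 2xX6x they were 1.09-fold to 8.03-fold higher. The fis1X2x arrays overlapped those of 2xX6x in 6 of the 10, as in AT2G30810. They lay below them in 3 (AT4G09090, EXPA21 and scpl47), beside 21.3% of all probe sets kept. In 1 (AT2G39640) they lay above them, beside 15.9%. Most probe sets kept thus overlap as well, and the overlap is not particular to these genes. The msi1 array was at least 1 (log2) below both 2xX2x arrays in 4 of the 10 (AT5G58830, AT4G09090, AT5G54220 and EXPA21), beside 6.04% of all probe sets, and within the range of the maternal excess arrays in 4, beside 56.5%. The msi1 array was among those over which these genes were ranked.

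The 5 genes with the lowest r were AT1G21000, which encodes a PLATZ transcription factor (r = -0.90), AT3G04350, AT3G61930, the sulfurtransferase gene STR18 and AT3G14395 (-0.89 to -0.88). AT1G21000, for example, was -2.17 ± 0.19 in paternal against maternal excess (log2 ± SE). The 20 most alike genes lay on all 5 chromosomes, with 4 on chromosome 2, which held 14.7% of the genes ranked.

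The genes next to AT2G30810 were asked whether the locus moved as a block. Within the order of loci in the TAIR10.1 gene table, the nearest 5 loci on each side with a single-gene probe set lay 1 to 11 loci away, and 6 of the 10 passed the filter. The nearest, AT2G30820, lay 1 locus away and differed by 0.30 ± 0.32 in paternal against maternal excess (adjusted p = 0.65, limma), with signals of 6.4 to 34.6. In the same contrast AT2G30730, a protein kinase gene 9 loci away, rose by 2.19 ± 0.41 (adjusted p = 0.00959, limma). Its signal was 5.7 and 3 in 6xX2x, 0.4 and 1.6 in 4xX2x, 19.5 and 19.4 in 2xX2x, 42 and 58.1 in 2xX4x, 31.3 and 25.7 in 2xX6x, 1.6 and 31.2 in fis1X2x and 1.4 in msi1. All its maternal excess arrays lay below both 2xX2x arrays and all paternal excess arrays above them. Without 2xX4x replicate 2 its adjusted p was 0.0594.

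TBL43, a gene of the family that acetylates cell wall polymers, lay 9 loci away on the other side and rose by 1.30 ± 0.33 (adjusted p = 0.0472, limma). Its signal was 0.6 to 6.1 in maternal excess, 15 and 3.6 in 2xX2x, 13 to 21.7 in paternal excess, 33.4 and 37.2 in fis1X2x and 6.8 in msi1. This call was lost on leaving out any of 10 arrays (adjusted p 0.0593 to 0.187) and remained without either 2xX2x array. The other 4 tested neighbours, AT2G30780, AT2G30740, AT2G30710 and AT2G30820, differed by -0.31 to 0.46 and were not called. In paternal against maternal excess AT2G30810 ranked 1st of all probe sets kept. No neighbour could therefore reach a difference of its size, whatever the locus did.

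**Figure D4:**
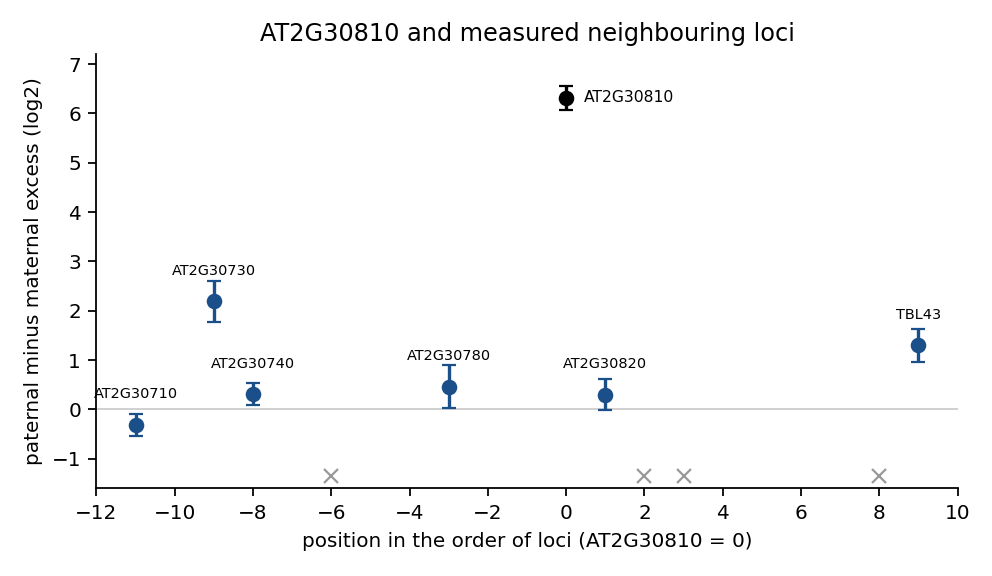
Difference between the 4 paternal and 4 maternal excess arrays (log2, ± SE) of AT2G30810 (black) and the neighbouring loci with a probe set of their own (blue), against position in the order of loci. Grey crosses at the bottom edge mark 4 loci that did not pass the filter and have no value. AT2G30810 stands at 6.31, and the next highest, AT2G30730, at 2.19.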

How the data were processed

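RNA of 13 silique samples was measured on Affymetrix ATH1 arrays. The deposited intensities are linear signals made by the authors with the MAS5 method of the array software and scaled to a common trimmed mean. Detection calls were not used here. The table has 22810 probe sets, of which 64 controls were left out, and 63 zeros.

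Samples were grouped by their labels. Signals were transformed as log2(signal + 7.4), the offset being the 20th percentile. To pass the filter a probe set had to exceed the array's 40th percentile on 2 or more arrays, which 15982 did and 6764 did not. The linear model of limma 3.58.1 (R 4.3.3, eBayes with trend) had a mean for each of the 6 replicated groups and used their 12 arrays. Tests were two-sided, with Benjamini-Hochberg adjustment over all kept probe sets per contrast and a threshold of 0.05. The fit has 6 residual degrees of freedom. With 2 arrays per group, the number of arrays limits the precision. Each p-value sets a difference between group means against the spread between replicates, pooled over the 6 groups. That spread is moderated across probe sets, with 4.92 prior degrees of freedom. In data simulated for 2xX6x against 2xX2x over 15982 probe sets, 12%, 58%, 92% and 98% of changes of log2 size 1, 2, 3 and 4 were recovered, with 7 false calls beside 130 true ones. Levels of AT2G30810 and of genes ranked by likeness were not tested.

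Gene names come from the platform annotation (13513 probe sets with 1 gene, 503 with several, 8730 with none), of which 13484 matched the TAIR10.1 gene table. No coordinates are given, because the build of the files is not given in the sources used here.

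The gene, the gene lists and the tests were chosen with earlier results of these data known. Named genes are AT2G30810, measured GASA genes, gibberellin genes past the threshold (otherwise counts, with the extreme member), the 10 highest and 5 lowest by r, 5 neighbours per side and markers. The 6 genes with both steps of at least 2 were named after their values were seen. The alternatives tried were an offset of 0 or 2 times the size, quantile normalization, median centring, no filter or the 60th percentile, array weights, eBayes without trend, a model of only the arrays compared, the replicate number as a block, Spearman's rho, group means, and leaving out each array. Python 3.11.15 was used for tables and matplotlib 3.10.9 for figures.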

Additional observations from a re-analysis of the deposited data

Results flagged for a closer look

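In 2 GASA genes the arrays of 2xX6x and 6xX2x (lethal pair) did not overlap, and those of 2xX4x and 4xX2x (viable pair) did not overlap in the opposite direction. With 2 arrays per group this rests on few values. The share of all probe sets that meet this rule was not computed, so the count has no background beside it. AT5G59845 was higher in 2xX6x than in 6xX2x and lower in 2xX4x than in 4xX2x, and the difference between the pairs was 1.29 ± 0.50 (log2 ± SE, adjusted p = 0.494, limma). AT2G18420 was lower in 2xX6x than in 6xX2x and higher in 2xX4x than in 4xX2x, with a difference of -1.37 ± 0.79 (adjusted p = 0.693, limma). Neither difference passed the test. The signals of AT2G18420 were at or under 33.8 on all arrays, and its groups were parted by little. The nearest arrays were 9.9 in 2xX6x against 10.4 in 6xX2x, and 15.6 in 2xX4x against 14.2 in 4xX2x. The difference was computed for 19 genes.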

How the results depend on the processing

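AT2G30810 kept its direction in each cross and in paternal against maternal excess under all alternatives run. With no offset its difference was -3.78 in 4xX2x and 6.76 in paternal against maternal excess. Leaving out 1 array gave 2.28 to 3.01 in 2xX4x, 3.80 to 4.53 in 2xX6x, -3.63 to -2.90 in 4xX2x, -3.02 to -2.09 in 6xX2x, 3.78 to 4.50 in fis1X2x and 6.08 to 6.55 in paternal against maternal excess. Of the 20 genes most alike, 10 were shared with Spearman's rho, 11 with the 7 group means, 11 without msi1 and 11 to 19 on leaving out 1 array. The offset and normalization alternatives shared 17 or 18.

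The number of probe sets called in 2xX4x (13) was 0 with no offset, 28 with array weights, 0 in a model of only the arrays compared and 0 to 17 on leaving out 1 array. In 2xX6x (152) it was 87 with no offset, 71 in the model of only the arrays compared and 65 to 155. In 4xX2x (348) it was 87 in that model and 138 to 355. In 6xX2x (369) it was 177 with array weights, 104 in that model and 105 to 600. In fis1X2x (348) it was 136 in that model and 186 to 350. In paternal against maternal excess (891) it was 463 to 1059. In the difference between the pairs (59) it was 17 with no offset, 30 with the filter at the 60th percentile and 3 to 106. The causes were not tested.

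In 6xX2x, 1 GASA gene, AT5G59845, was called lower with quantile normalization (adjusted p = 0.0354, limma), with the replicate block (0.0372) and without fis1X2x replicate 1 (0.0247) or replicate 2 (0.0243), a range of 0 to 1 on leaving out 1 array. Its adjusted p over all alternatives lay between 0.0243 and 0.228. The difference of AT2G18420 in paternal against maternal excess turned to -0.00222 with an offset 2 times as large, -0.0651 with quantile normalization and -0.0178 with median centring. On leaving out 1 array it was -0.27 to 0.33, that of AT5G59845 -0.17 to 0.13, of GID1A -0.38 to 0.11 and of SLY1 -0.119 to 0.0436. In fis1X2x it was -1.29 to 0.10 for GID1A, -0.17 to 0.26 for SPY, -0.67 to 0.43 for BAN, -0.27 to 0.75 for ALC, -1.64 to 0.29 for AT2G30780 and -1.58 to 0.52 for AT2G30730. None of these was called. TBL43 in paternal against maternal excess had an adjusted p of 0.0527 with an offset 2 times as large and 0.0554 in the model of only the arrays compared (limma). MPC in that contrast lost its call on leaving out 4 arrays (adjusted p up to 0.0731) and AGL62 in fis1X2x lost its call with no offset (0.0911), with array weights (0.0704) and in the model of only the arrays compared (0.145).

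The replicate number was checked as a pairing. Deviations of same-numbered arrays correlated between -0.24 and 0.41 over 15 pairs of groups, with a median of 0.06. The labels give a replicate number and no batch, and whether some groups shared a batch was not tested. With the replicate block 11, 153, 375, 392, 352, 1005 and 55 probe sets were called in the 7 contrasts.

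Dim genes are limited by signal over background, and the number of arrays limits all values.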
